A study of Mus musculus with 4 samples.

Results

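The genes of fatty acid and triglyceride synthesis were examined across 4 arrays of mouse adipose tissue: 35 genes, chosen as the lipogenic enzymes and their regulators with the fatty acid elongases left out, and found on the arrays by their gene names. They had 50 of the 55681 probes and made up 35 of the 22066 genes whose names matched the RefSeq gene table. Interscapular brown adipose tissue (iBAT) and epididymal white adipose tissue (eWAT) were taken from wild-type (WT) and from ASK1-deficient mice. Each of the 4 combinations of genotype and tissue was 1 array, hybridized with the Cy3-labelled RNA of 3 pooled mice, all males 10 weeks old under normal conditions. ASK1 is a stress-activated kinase of the MAP kinase cascade, encoded by Map3k5, and the ASK1-deficient mice lacked it in the whole body. The mice were of the C57BL/6 J strain, and the WT and ASK1-deficient mice had been bred separately, so that genotype and breeding line cannot be told apart. With 1 pool for each genotype and tissue, the variation from mouse to mouse was not measured, and the genotypes could not be tested against each other within a tissue.

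Fat cells make fatty acids from citrate that leaves the mitochondria, is split to acetyl-CoA in the cytosol, is carboxylated to malonyl-CoA and is built by fatty acid synthase into palmitate, at the cost of NADPH. Desaturases then act on the acyl chains, and acyltransferases and a phosphatase join them to glycerol phosphate to form triglyceride. Brown adipose tissue is known for a high rate of this synthesis beside its high rate of fat burning, and insulin and dietary carbohydrate raise the pathway through the transcription factors SREBP and ChREBP.

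Levels are given as scaled signals, that is, multiples of the 75th percentile of all probes on the same array, and they are compared only between arrays for the same probe. The 75th percentile itself was 356 and 371 intensity units in WT and ASK1-deficient iBAT, and 673 and 634 in WT and ASK1-deficient eWAT. Between 28985 and 33389 probes an array were well above background, and no probe of the 35 genes was saturated. A log2 ratio is the ASK1-deficient minus the WT value, averaged over those probes of a gene that both arrays measured well above background. Among probes printed in at least 5 usable spots, the median SD of the log2 ratio over spots was 0.087 for iBAT and 0.060 for eWAT, and its 95th percentile was 0.33 for iBAT and 0.23 for eWAT. This spread is technical and does not include the mice. Map3k5 had 2 probes: one read 1.26, 0.314, 1.04 and 0.306 on the WT iBAT, ASK1-deficient iBAT, WT eWAT and ASK1-deficient eWAT arrays, and the other 3.04, 2.91, 1.88 and 1.32. The first probe was thus lower on both ASK1-deficient arrays, with log2 ratios of -2.0 and -1.76. The 10 brown adipocyte markers summed to 4017 and 3411 in WT and ASK1-deficient iBAT against 53.7 and 21.5 in WT and ASK1-deficient eWAT, and the 10 general adipocyte markers to between 2858 and 2984 on all 4 arrays at this scaling. The general adipocyte sums mix markers that differed between the tissues. In WT mice their log2 ratios of iBAT to eWAT ran from -4.56 to 1.10, with 6 above and 4 below 0. The brown adipocyte markers were thus far brighter on the iBAT arrays, as labelled.

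All 35 genes had at least 1 probe well above background on all 4 arrays. Promoters, here the 250 bases before to 50 bases after a RefSeq transcription start on GRCm38.p6, were found for 27 of the 35 genes, 37 promoters in all. Those of 5 genes are shown because they include the 3 genes with the lowest ratios in iBAT (Fasn, Agpat2 and Mogat1), and 1 gene each with an E-box (Slc25a1) and a sterol response element core (Gpam). Capitals mark every match, on either strand, to the E-box CACGTG, the sterol response element core TCACNCCA, the CCAAT box CCAAT, the GC box GGGCGG or the carbohydrate response element, all read 5′ to 3′.
Fasn promoter, chr11:120824498-120824797, minus strand: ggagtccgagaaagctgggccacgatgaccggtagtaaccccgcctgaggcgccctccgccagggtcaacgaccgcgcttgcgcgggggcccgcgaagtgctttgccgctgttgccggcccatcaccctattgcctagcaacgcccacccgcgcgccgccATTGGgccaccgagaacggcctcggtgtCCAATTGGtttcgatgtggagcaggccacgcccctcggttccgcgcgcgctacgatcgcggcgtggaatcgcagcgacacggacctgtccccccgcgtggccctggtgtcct
Agpat2 promoter, chr2:26604368-26604667, minus strand: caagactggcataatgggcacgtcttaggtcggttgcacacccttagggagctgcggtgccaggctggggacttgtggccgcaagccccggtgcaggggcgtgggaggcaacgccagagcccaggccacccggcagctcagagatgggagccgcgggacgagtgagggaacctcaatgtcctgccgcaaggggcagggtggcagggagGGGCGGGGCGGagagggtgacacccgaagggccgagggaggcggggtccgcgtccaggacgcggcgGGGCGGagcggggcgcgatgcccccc
Mogat1 promoter, chr1:78510810-78511109, plus strand: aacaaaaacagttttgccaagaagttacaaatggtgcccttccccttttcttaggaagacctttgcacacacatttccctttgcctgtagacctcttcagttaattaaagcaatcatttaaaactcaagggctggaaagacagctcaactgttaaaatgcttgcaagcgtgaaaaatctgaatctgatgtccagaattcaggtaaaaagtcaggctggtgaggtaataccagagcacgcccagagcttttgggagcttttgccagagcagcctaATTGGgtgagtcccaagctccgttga
Slc25a1 promoter, chr16:17928170-17928469, minus strand: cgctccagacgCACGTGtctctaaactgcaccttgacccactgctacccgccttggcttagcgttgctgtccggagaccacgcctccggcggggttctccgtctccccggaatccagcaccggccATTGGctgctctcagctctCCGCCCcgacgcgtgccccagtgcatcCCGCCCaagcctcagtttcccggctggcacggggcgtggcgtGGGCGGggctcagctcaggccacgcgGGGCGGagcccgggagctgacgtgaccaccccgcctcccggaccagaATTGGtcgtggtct
Gpam promoter, chr19:55127189-55127488, minus strand: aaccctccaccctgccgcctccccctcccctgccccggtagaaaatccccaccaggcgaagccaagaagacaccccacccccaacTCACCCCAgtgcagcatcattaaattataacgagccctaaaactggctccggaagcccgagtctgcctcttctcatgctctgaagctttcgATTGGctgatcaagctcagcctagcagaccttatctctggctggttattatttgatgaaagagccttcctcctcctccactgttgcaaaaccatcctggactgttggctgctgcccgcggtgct
The Fasn window held 3 CCAAT boxes, of which those at -62 and -59 from the start overlap on opposite strands. The Slc25a1 window held an E-box at -239, and the Gpam window a sterol response element core at -165. Over the 37 promoters, the E-box was in 5 (13.5%, against 7.15% of all 32851 promoters of the table), in Mlx, Mlxipl, Slc25a1, Lpin2 and Lpin3. The sterol response element core was in 4 (10.8%, against 4.36%), in Pgd, Mlxipl, Tkt and Gpam. The CCAAT box was in 18 (48.6%, against 37.4%) and the GC box in 20 (54.1%, against 35.7%), and the carbohydrate response element was in 0, against 0.0457% of all promoters. These matches are letters in a window and no evidence of binding.

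In ASK1-deficient iBAT most genes of the pathway, from citrate export to triglyceride assembly, had lower levels than in WT iBAT. The median log2 ratio of the 35 genes was -0.52, beside a median of -0.07 over all 14377 genes measured there, and 30 of the 35 were below 0, beside 59.5% of all genes. A level at least 2-fold lower was found for 3 genes, beside 1.02% of all genes, and one at least 1.5-fold lower for 14, beside 4.26%. None was at least 2-fold higher, beside 0.835%, and of the 5 genes above 0, beside 40.5% of all genes, only Lpin3 was at least 1.5-fold higher, beside 4.52%. The ratios of 24 genes lay below 0 by more than the 95th percentile of the technical SD, beside 16.6% of all genes, those of 3 (Fads1, Agpat4 and Lpin3) above 0 by more, beside 12.5%, and 8 lay within it. In ASK1-deficient eWAT the picture differed: the median was 0.07, beside 0.02 over 15377 genes, and 21 of 35 were above 0, beside 54.1% of all genes, and 14 below, beside 45.9%. No gene of the pathway reached 2-fold in eWAT, beside 0.286% of all genes that were higher and 0.865% that were lower. At least 1.5-fold higher there were 2, Fasn and Mogat2, beside 1.38%, and none was 1.5-fold lower, beside 2.67%. By more than the 95th percentile of the technical SD, 10 genes lay above 0 in eWAT, beside 10.1% of all genes, and 3 below, beside 11.7%. In 6 genes (Slc25a1, Acly, Acss2, Acaca, Fasn and Mogat1) the ratio was below 0 in iBAT and above 0 in eWAT, each beyond the median technical SD of its tissue, and the tissues lay at least 1 apart on the log2 scale, beside 0.697% of the 14059 genes measured in both tissues. No gene of the pathway met these limits the other way round, beside 1.29%. The plot of both ratios by gene shows the genes of acetyl-CoA and NADPH supply and of fatty acid synthesis, except Aacs, on opposite sides of 0 in iBAT and eWAT, and the cumulative plot shows the whole set against all genes.

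**Figure D1:**
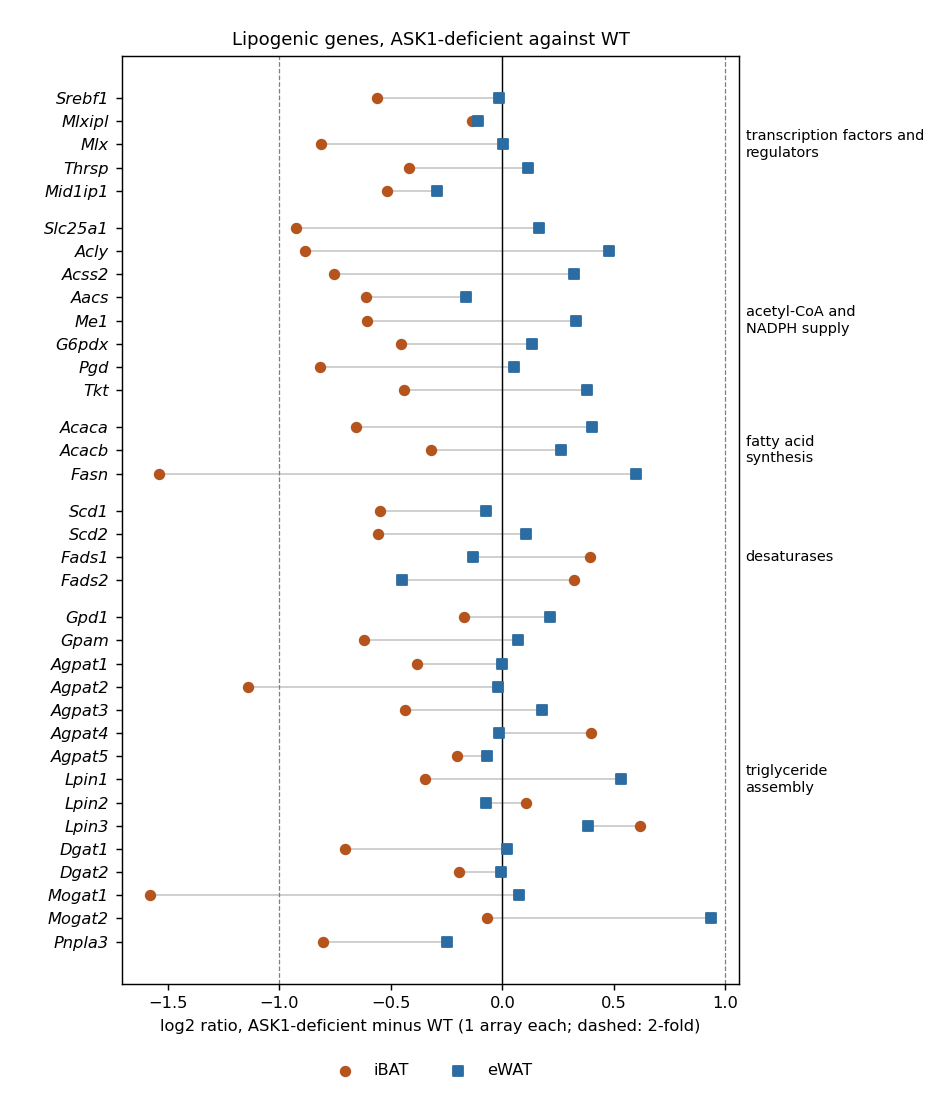
Log2 ratio of ASK1-deficient to WT (x axis) for each of the 35 genes, ordered by role; circles are iBAT and squares eWAT, each from 1 array a genotype, and dashed lines mark 2-fold. Fasn (-1.54), Mogat1 (-1.58) and Agpat2 (-1.14) lie past 2-fold in iBAT, and no gene does in eWAT.

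**Figure D2:**
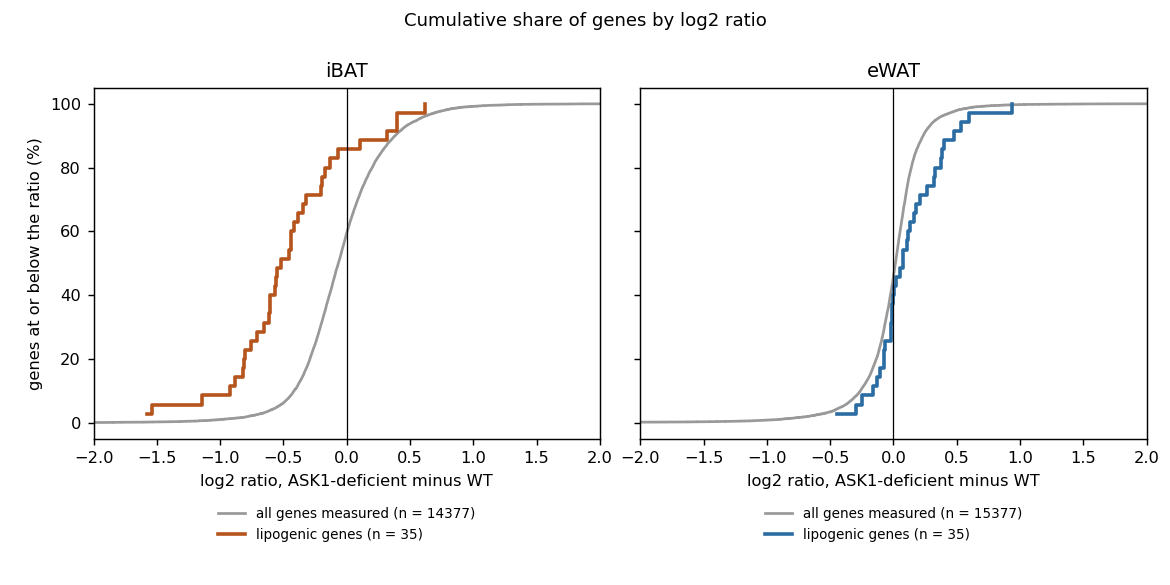
Share of genes (y axis, percent) at or below a log2 ratio of ASK1-deficient to WT (x axis), for the 35 genes of the pathway (coloured) and all genes measured (grey), in iBAT (left) and eWAT (right). In iBAT the coloured line lies left of the grey one over most of its length, with a median of -0.52 against -0.07, and in eWAT it lies slightly right of it, with 0.07 against 0.02.

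The 5 regulators had log2 ratios below 0 in ASK1-deficient iBAT, as had 59.5% of all genes, with a median of -0.52, of which that of Mlxipl lay within the 95th percentile of the technical SD. In eWAT they ranged from -0.29 to 0.11, with a median of -0.01. Srebf1, which encodes the SREBP form that drives fatty acid genes, read 3.66 and 2.48 in WT and ASK1-deficient iBAT and 2.74 and 2.72 in WT and ASK1-deficient eWAT, in scaled signal. At this scaling WT iBAT was the highest of the 4 and the others lay close together, while without scaling the log2 ratio of iBAT to eWAT in WT was -0.51. The ratio between genotypes was -0.56 for iBAT and -0.01 for eWAT. Mlx, the partner with which ChREBP binds DNA, read 3.99 and 2.27 in iBAT and 1.89 and 1.89 in eWAT, a ratio of -0.81 in iBAT. Its WT iBAT level stood apart from the other 3 in the same way at this scaling. Without scaling its log2 ratio of iBAT to eWAT was 0.16 in WT and -0.51 in ASK1-deficient mice. Mlxipl, which encodes ChREBP itself, had 2 probes that differed: the brighter read 115 and 89.3 in iBAT and 40.3 and 37.1 in eWAT, and the dimmer 15.7 and 16.8 in iBAT and 13 and 12.2 in eWAT. The iBAT ratios of these probes were -0.37 and 0.09, so the mean of -0.14 hides a disagreement of sign. Thrsp, a small nuclear protein that responds to thyroid hormone and carbohydrate, read 543 and 406 in iBAT and 228 and 247 in eWAT, with ratios of -0.42 and 0.11. Mid1ip1, a relative of Thrsp that promotes the polymerization of acetyl-CoA carboxylase, was lower in both tissues, with ratios of -0.52 and -0.29.

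The genes that supply acetyl-CoA and NADPH were lower in ASK1-deficient iBAT in 8 of 8, beside 59.5% of all genes, with a median of -0.68 and a range from -0.93 to -0.44, and 6 of them were at least 1.5-fold lower, beside 4.26%. In eWAT 7 of the 8 were above 0, beside 54.1% of all genes, with a median of 0.24, but none reached 1.5-fold. Slc25a1, the mitochondrial carrier that exports citrate, read 57.8 and 30.4 in WT and ASK1-deficient iBAT and 30.8 and 34.5 in eWAT, a 1.90-fold lower level in iBAT. Its level in ASK1-deficient iBAT was close to both eWAT levels at this scaling. Acly, which splits citrate to acetyl-CoA, read 264 and 144 in iBAT and 105 and 146 in eWAT at its brighter probe, and 3.06 and 1.65 in iBAT and 0.807 and 1.13 in eWAT at the other. The ratios of the probes were -0.87 and -0.89 in iBAT and 0.47 and 0.49 in eWAT, so that in both the higher level was WT in iBAT and ASK1-deficient in eWAT. The dimmer probe lies at chr11:100365518-100365577 on the mm9 assembly of the array design, far upstream of the brighter one at chr11:100337674-100337733 on the same minus strand, and its sequence is shown because it reads a part of the gene far from that of the brighter probe.
Acly dimmer probe, chr11:100365518-100365577, minus strand: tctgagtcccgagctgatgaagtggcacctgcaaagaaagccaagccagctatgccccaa
Acss2, which makes acetyl-CoA from acetate, read 43.7 and 25.9 in iBAT and 22 and 26.4 in eWAT at its brighter probe and 4.90 and 2.89 in iBAT and 1.18 and 1.54 in eWAT at the other. Its ratios were -0.76 in iBAT and 0.32 in eWAT, again with the order of the genotypes turned between tissues. Aacs, which activates acetoacetate in the cytosol, read 40.9 and 26.8 in iBAT and 35.4 and 31.7 in eWAT, with ratios of -0.61 and -0.16, and was the member of this group that was lower in both tissues.

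Among the NADPH genes, Me1, the cytosolic malic enzyme, was measured by 3 probes with iBAT ratios of -0.71, -0.63 and -0.48 and eWAT ratios of 0.29, 0.28 and 0.41. Its brightest probe read 90.6 and 55.3 in iBAT and 109 and 134 in eWAT. All 3 probes had ASK1-deficient iBAT as the lowest and ASK1-deficient eWAT as the highest array. Pgd, an NADPH-producing enzyme of the pentose phosphate pathway, read 51.5 and 29.2 in iBAT and 47.5 and 49.2 in eWAT, a ratio of -0.82 in iBAT. ASK1-deficient iBAT alone stood below the other arrays at this scaling. Without scaling the log2 ratio of iBAT to eWAT in WT was -0.80, and it was below 0 under 4 of the 8 scalings and background corrections. G6pdx, the entry enzyme of that pathway, and Tkt, of its non-oxidative arm, had iBAT ratios of -0.45 and -0.44 and eWAT ratios of 0.13 and 0.38.

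The 3 genes of fatty acid synthesis itself were below 0 in iBAT, beside 59.5% of all genes, with a median of -0.65, and above 0 in eWAT, beside 54.1%, with a median of 0.40. Fasn, fatty acid synthase, read 60.6 and 20.9 in WT and ASK1-deficient iBAT and 21.2 and 32.1 in WT and ASK1-deficient eWAT. It was 2.90-fold lower in ASK1-deficient iBAT, where only 0.25% of all genes had a lower ratio, and 1.51-fold higher in ASK1-deficient eWAT. Its level in ASK1-deficient iBAT was close to that of WT eWAT at this scaling, as the plot of the arrays shows. Acaca, the cytosolic acetyl-CoA carboxylase that commits acetyl-CoA to fatty acid synthesis, had 4 probes with iBAT ratios from -0.71 to -0.59 and eWAT ratios from 0.35 to 0.48. Its brightest probe read 366 and 231 in iBAT and 139 and 178 in eWAT. The next brightest, which the array design places on chromosome 12 and not with the others on chromosome 11, read 336 and 223 in iBAT and 135 and 179 in eWAT. It shares a run of 55 of its 60 bases with the brightest probe, so these are not independent readings. Acacb, the carboxylase at the mitochondrial surface whose malonyl-CoA restrains fatty acid import, had smaller ratios of -0.32 and 0.26, with 91.6 and 68 in iBAT and 19.9 and 22.1 in eWAT at its brighter probe, and 8.41 and 7.26 in iBAT and 1.03 and 1.33 in eWAT at the other.

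**Figure D3:**
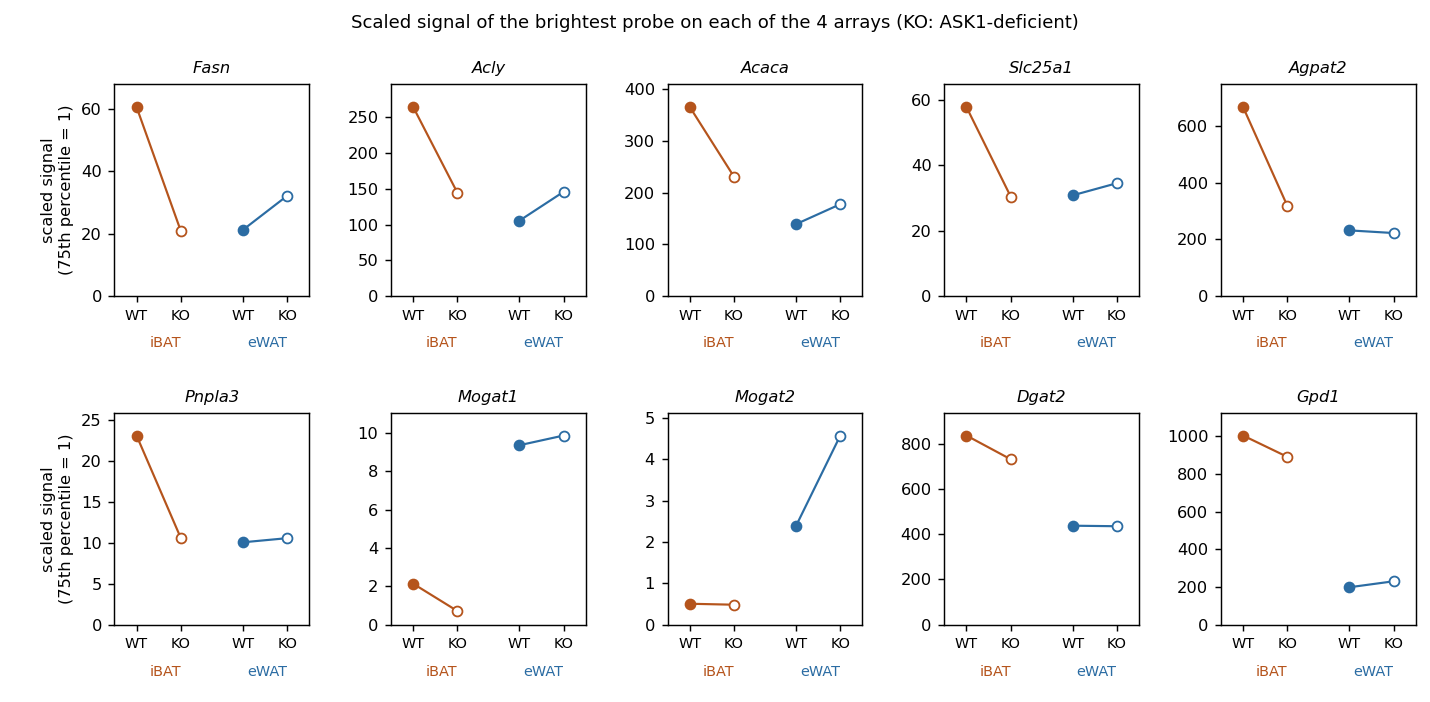
Scaled signal (y axis, multiples of the array's 75th percentile, from 0) of the brightest probe of 10 genes on the WT (filled) and ASK1-deficient (open, KO) arrays of iBAT and eWAT, 1 point an array. For Fasn, Acly, Acaca and Slc25a1 the line runs down in iBAT and up in eWAT, and Fasn goes from 60.6 to 20.9 in iBAT.

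The desaturases were divided in iBAT. Scd1 and Scd2, which put the first double bond into saturated chains, were lower with ratios of -0.55 and -0.56, and Fads1 and Fads2, which desaturate polyunsaturated chains, were higher with 0.39 and 0.32. The ratio of Fads2 lay within the 95th percentile of the technical SD and was 0.16 under normexp background correction. Scd1 read 413 and 283 in iBAT and 262 and 249 in eWAT, with WT iBAT again the highest array at this scaling, but with log2 ratios of iBAT to eWAT in WT of -0.26 without scaling and -0.19 under quantile normalization. Fads2 was dim: its brighter probe read 0.228 and 0.285 in iBAT and 0.353 and 0.259 in eWAT. Its other probe was well above background only in ASK1-deficient iBAT and WT eWAT, so that the genotypes were at least 1.48-fold apart in iBAT, with ASK1-deficient the higher, and at least 1.78-fold apart in eWAT, with WT the higher, each in the direction of the brighter probe. For such a bound the dim array is given its own signal or, if that is larger, its lowest signal that was well above background. In eWAT the 4 desaturases ranged from -0.45 (Fads2) to 0.11 (Scd2).

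Of the genes of triglyceride assembly, 12 of 15 were below 0 in ASK1-deficient iBAT, beside 59.5% of all genes, with a median of -0.35, and they spread more widely, from -1.58 to 0.62. In eWAT 8 of the 15 were above 0, beside 54.1%, with a median of 0.02. Agpat2, the acyltransferase that makes phosphatidic acid and whose loss causes lipodystrophy, read 666 and 318 in WT and ASK1-deficient iBAT and 232 and 222 in eWAT at its brighter probe, and 109 and 46.8 in iBAT and 34.4 and 34.8 in eWAT at the other. It was 2.21-fold lower in ASK1-deficient iBAT and within the technical spread in eWAT, with a log2 ratio of -0.02. The related Agpat1, Agpat3 and Agpat5 had iBAT ratios of -0.38, -0.44 and -0.21, and Agpat4 was higher, at 0.40. Gpam, the mitochondrial acyltransferase that begins glycerolipid synthesis, read 4.46 and 3.05 in iBAT and 2.48 and 2.60 in eWAT at its brighter probe, and 2.26 and 1.40 in iBAT and 0.880 and 0.928 in eWAT at the other, for a gene ratio of -0.62 in iBAT. Gpd1, which supplies glycerol phosphate, had smaller ratios of -0.17 and 0.21.

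The final steps differed between their parallel enzymes. Dgat1 and Dgat2 both add the last acyl chain: Dgat1 read 37.5 and 23.0 in iBAT and 22.9 and 23.2 in eWAT, and Dgat2 read 836 and 731 in iBAT and 438 and 435 in eWAT. The iBAT ratio was -0.71 for Dgat1 and -0.19 for Dgat2, and both were close to 0 in eWAT. Mogat1, a monoacylglycerol acyltransferase, read 2.14 and 0.716 in WT and ASK1-deficient iBAT and 9.35 and 9.86 in eWAT. It was 2.99-fold lower in ASK1-deficient iBAT, the lowest ratio of the 35 genes there. Mogat2, of the same activity, read 0.508 and 0.484 in iBAT and 2.39 and 4.57 in eWAT, a 1.91-fold higher level in ASK1-deficient eWAT and the highest of the 35 ratios in that tissue. Pnpla3, a lipid droplet protein of the patatin-like phospholipase family, had 2 probes that ran apart: the first read 23.1 and 10.6 in iBAT and 10.1 and 10.6 in eWAT, and the second 3.08 and 2.21 in iBAT and 13.6 and 9.17 in eWAT. Between genotypes their ratios were -1.13 and -0.48 in iBAT and 0.07 and -0.57 in eWAT. Between tissues they opposed each other, with iBAT minus eWAT in WT at 1.2 for the first and -2.14 for the second, so the mean for the gene does not describe either.

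The phosphatidate phosphatases of the lipin family differed among themselves. Lpin3 read 1.34 and 2.05 in iBAT and 2.17 and 2.83 in eWAT, with ratios of 0.62 and 0.38, and was the one gene of the set with a ratio beyond the 95th percentile of the technical SD upwards in both tissues. Lpin1 was lower in iBAT, at -0.35, and higher in eWAT, at 0.53, but its iBAT ratio was the mean of 0.05 at the brighter probe and -0.74 at the dimmer, against 0.51 and 0.56 in eWAT. Lpin2 was dim, with 0.272 and 0.293 in iBAT and 0.366 and 0.348 in eWAT at one probe. Its other probe stood clear of the background on the WT eWAT array alone, where it was at least 1.09-fold above ASK1-deficient eWAT, and it gave no ratio in iBAT.

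A limma fit over the 4 arrays with terms for genotype and tissue assumes 1 genotype effect shared by iBAT and eWAT, and its 1 residual degree of freedom holds how far the tissues depart from that and not the mice. No gene passed an adjusted p of 0.05 for genotype, in either direction, among the 14057 genes fitted or the 35. At an unadjusted p under 0.05, Lpin3 was higher and Mid1ip1 and Pnpla3 were lower, 3 of the 35 beside 2.68% of all genes higher and 2.8% lower. The lowest adjusted p of the set for genotype was 0.81. For Fasn, whose ratios had opposite signs in the tissues, the common genotype effect was -0.47 with a standard error of 0.45 and an adjusted p of 0.98 in the limma fit. Whether the genotype effect differed between iBAT and eWAT was not tested, since the design leaves no replicate for it.

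The lower levels in iBAT did not lie among dim probes alone. Among genes with a mean scaled level from 10 to 100 in iBAT, 2008 in all, the median log2 ratio was -0.17, 76.2% were below 0 and 4.58% were at least 1.5-fold lower. The 14 genes of the pathway in that range had a median of -0.63, 14 of 14 were below 0 and 9 were at least 1.5-fold lower. Above 100, 7 genes of the pathway had a median of -0.44, beside -0.17 over 363 genes, and from 1 to 10, 11 had -0.38, beside -0.10 over 5707. The 3 dimmest, Fads2, Lpin2 and Mogat2, with a level under 1, had a median of 0.11 beside 0.02 over 6299 genes.

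Markers of other cells moved between the arrays as well. The 10 macrophage markers were above 0 in 10 of 10 in ASK1-deficient iBAT, with a median log2 ratio of 0.75 and their scaled signals summed to 42.7 in WT and to 53.8 in ASK1-deficient mice. The general adipocyte markers had a median of -0.19 there, with sums of 2908 and 2858, and the brown adipocyte markers a median of -0.39, with 9 of 10 below 0 and sums of 4017 and 3411. In ASK1-deficient eWAT, 8 of 12 hepatocyte markers were measured on both arrays and 8 of 8 were below 0, with a median of -3.33. In iBAT, 6 of the 12 were well above background in WT and 11 in ASK1-deficient mice. The summed signals of the list were 92.2 and 86.3, of which Cyp2e1 alone gave 79.6 and 72.3. Alb read 0.0211 in WT iBAT, not well above background, and 0.311 in ASK1-deficient iBAT, and Ahsg 0.0141, also not well above background, and 0.290. The 6 markers measured on both iBAT arrays had a median of 0.00 (3 above and 3 below 0). The signal of Alb was 4.80 in WT and 0.250 in ASK1-deficient eWAT, and that of the brown adipocyte marker Ucp1 was 9.81 and 0.397. The brown adipocyte markers were below 0 in eWAT in 8 of 9 measured, with a median of -0.83 and 6 at least 1.5-fold lower. The general adipocyte markers in eWAT had a median of 0.06, and the macrophage markers -0.09. The skeletal muscle markers were below 0 in eWAT in 6 of 6 measured, with a median of -0.58, and above 0 in iBAT in 6 of 8, with 0.17. In ASK1-deficient iBAT the erythrocyte markers were below 0 in 4 of 4, with a median of -0.26, and the lymphocyte markers in 3 of 4 measured, with -0.40. In eWAT these lists had medians of -0.20 and -0.19. Beside these counts of markers, 40.5% of all genes were above 0 and 59.5% below in iBAT. In eWAT 45.9% of all genes were below 0 and 2.67% at least 1.5-fold lower. The part of these shifts in the levels of the lipogenic genes was not tested, and in whole tissue fewer cells of a type and less RNA per cell cannot be told apart.

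A list of 40 other genes linked to the pathway included acyl-CoA synthetases, SREBP processing factors, pentose phosphate enzymes and glycerol kinase. The list was wider than synthesis, as it also held Mlycd, Prkaa1, Prkaa2 and Stk11. Fabp4, Pparg and Cebpa in it were also counted as general adipocyte markers. In ASK1-deficient iBAT 32 of the 40 were below 0, beside 59.5% of all genes, and the median of the 40 was -0.28. Of these, 2 were past 2-fold, beside 1.02%, Acsl5, an acyl-CoA synthetase, at -1.62 and Gk, glycerol kinase, at -1.25, and 4 past 1.5-fold, beside 4.26%. In eWAT the 40 genes divided evenly, with 20 above and 20 below 0, a median of 0.01 and none past 1.5-fold.

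Between tissues, 24 of the 35 genes had a log2 ratio of iBAT to eWAT above 0 in WT mice at this scaling, beside 56.4% of all genes. The median was 0.66 over the 35 genes beside 0.12 over 14236 genes. Over the 8 scalings and background corrections, 12 genes were above 0 throughout, beside 18.3% of all genes, 11 below 0 throughout, beside 37.6%, and 12 changed sign, and the median was 0.38 under quantile normalization, 0.35 under loess normalization and -0.26 without scaling, beside 0.04, -0.02 and -0.80 over all genes. At least 2-fold higher in WT iBAT were 12 genes, beside 16.4% of all genes, and 4 were at least 2-fold lower, beside 13.4%. In ASK1-deficient mice the median was -0.01 beside 0.03 over 14513 genes, with 4 genes at least 2-fold higher, beside 12.3%, and 7 at least 2-fold lower, beside 12.6%. At 1.5-fold, 19 genes were higher in WT iBAT, beside 28.6% of all genes, and 7 lower, beside 21.4%, and in ASK1-deficient mice 7 were higher, beside 23.2%, and 9 lower, beside 21.2%. These comparisons use the same 4 arrays as those between genotypes, so a lower ASK1-deficient iBAT array lowers both. Markers of other cells differed between the same arrays: in WT mice the macrophage markers had a median of -2.73, with 9 of 10 at least 2-fold lower in iBAT, and the skeletal muscle markers a median of 6.92, with 7 of 7 measured 2-fold or more higher. These medians were -2.01 and 7.47 in ASK1-deficient mice. The part of these cells in the tissue ratios was not tested. Fasn was 2.86-fold higher in iBAT than eWAT in WT mice and 1.54-fold lower in ASK1-deficient mice, and Slc25a1 was 1.88-fold higher and 1.13-fold lower, at this scaling. Without scaling the log2 ratios in WT and ASK1-deficient mice were 0.59 and -1.39 for Fasn and -0.012 and -0.95 for Slc25a1. The plot of tissue ratios shows the shift towards eWAT in most rows, while Gpd1, Acacb, Tkt and Agpat3 were on the iBAT side by 2-fold or more in both genotypes, Tkt and Agpat3 only just so in ASK1-deficient mice, at 2.08-fold and 2.02-fold.

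**Figure D4:**
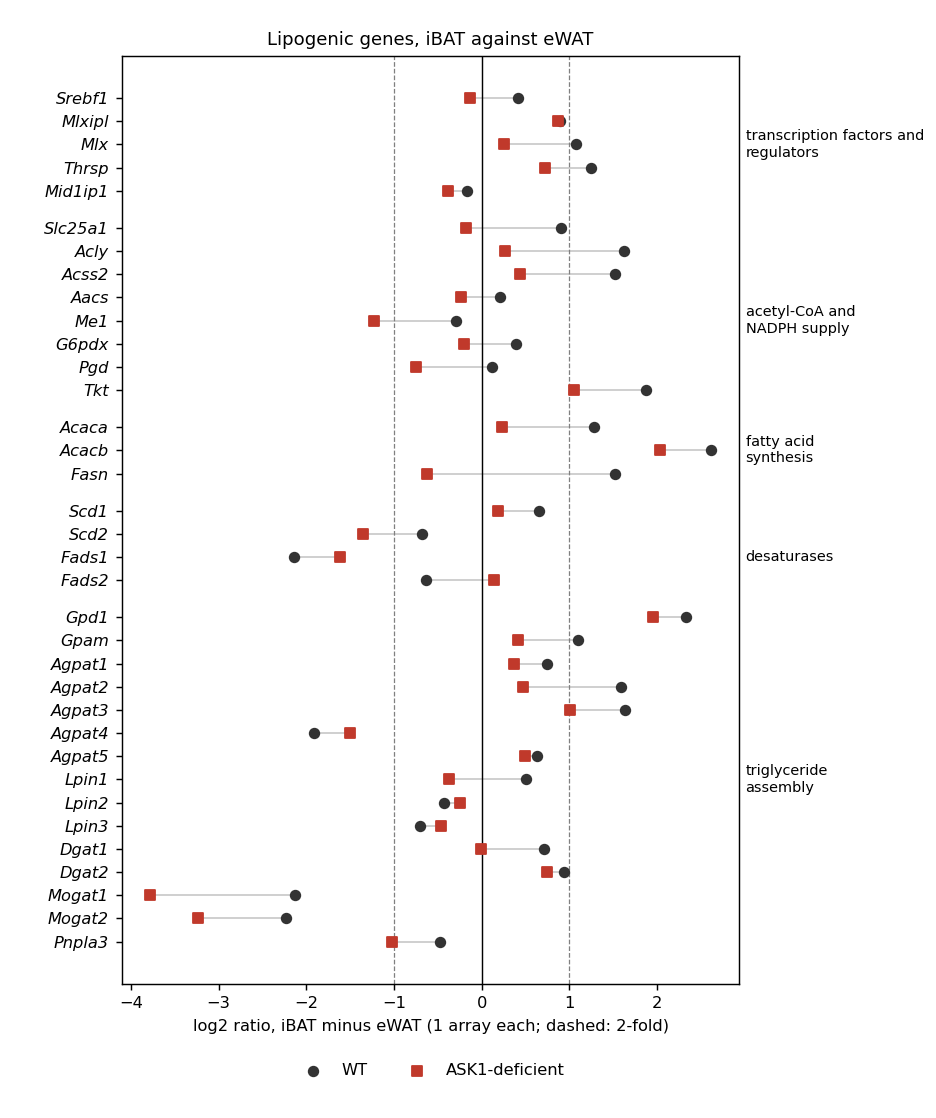
Log2 ratio of iBAT to eWAT (x axis) for each of the 35 genes by role; black circles are WT and red squares ASK1-deficient, each from 1 array a tissue, and dashed lines mark 2-fold. The median was 0.66 in WT and -0.01 in ASK1-deficient mice, and Mogat1 and Mogat2 lie far on the eWAT side in both.

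The limma fit of genotype and tissue called 15 of the 35 genes higher in iBAT at an adjusted p under 0.05, beside 30.8% of the 14057 genes, and 8 lower, beside 24.6%. In this fit the genotypes stood in for replicates of a tissue, so its standard errors do not measure the spread between mice. Gpd1, by 2.14 ± 0.16 (log2, standard error), Acacb, by 2.33 ± 0.19, Tkt, by 1.46 ± 0.22, and Agpat3, by 1.32 ± 0.19, were higher in iBAT and remained above 0 in both genotypes under all 8 scalings and background corrections tried. The other 11 calls, Mlxipl, Mlx, Thrsp, Acly, Acss2, Acaca, Gpam, Agpat1, Agpat2, Agpat5 and Dgat2, changed sign in 1 genotype or both under at least 1 of them. The 8 genes lower in iBAT were Mogat1, at -2.96 ± 0.36, Mogat2, at -2.74 ± 0.25, Fads1, at -1.88 ± 0.18, Agpat4, at -1.71 ± 0.17, Scd2, at -1.02 ± 0.20, and Me1, Pnpla3 and Lpin3, and they were below 0 in both genotypes under all 8, with the Pnpla3 probes opposed to each other as described. Fasn was not called for tissue, with an adjusted p of 0.43 in the limma fit. The split of 15 higher and 8 lower was 10 and 10 under quantile normalization (30.03% and 27.8% of all genes), 9 and 9 under loess normalization (27.5% and 28.9%) and 3 and 17 without scaling (9.13% and 68.2%). That of 12 and 4 at 2-fold in WT was 9 and 5 under quantile normalization (14.6% and 14.2% of all genes) and 2 and 11 without scaling (5.09% and 39.6%). That of 4 and 7 in ASK1-deficient mice was 2 and 7 under 5 other settings, where between 9.28% and 11.5% of all genes were higher and between 9.13% and 13.9% lower, and 2 and 14 without scaling (4.28% and 35.6%). Without scaling the split thus moved with that of all genes.

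Between genotypes, 29 of the 35 genes were below 0 in iBAT under all 8 scalings and background corrections, beside 43.5% of all genes, 5 were above 0, beside 29.0%, and Mogat2 changed sign. In eWAT 16 were above 0 under all 8, beside 30.8%, and 9 below, beside 37.7%, and 10 changed sign, among them Srebf1, Mlx, Gpam, Dgat1 and Dgat2. Fasn ranged from -1.62 to -1.35 in iBAT and from 0.51 to 0.62 in eWAT, and Acly from -0.97 to -0.76 and from 0.39 to 0.50. Agpat2 ranged from -1.23 to -0.87 in iBAT, where quantile normalization left it under 2-fold. The median of all genes moved with the scaling, from -0.15 to 0.04 in iBAT and from -0.07 to 0.05 in eWAT, and relative to it the median of the 35 genes lay between -0.45 and -0.30 in iBAT and between 0.02 and 0.07 in eWAT. The plot by processing shows both medians side by side.

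**Figure D5:**
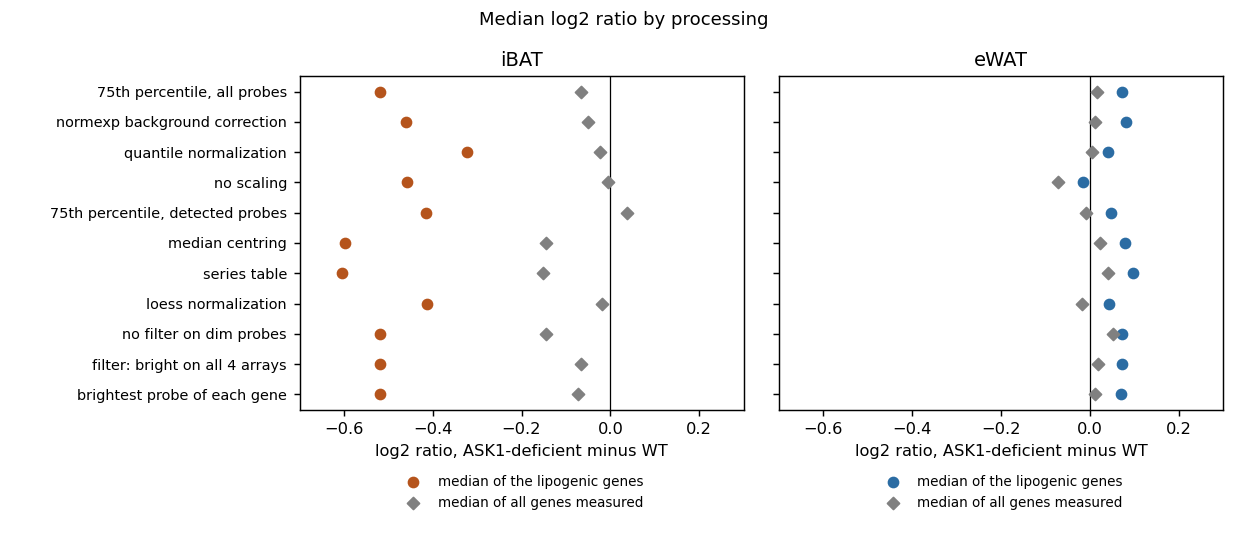
Median log2 ratio of ASK1-deficient to WT (x axis) in iBAT (left) and eWAT (right) under each processing (y axis); circles are the 35 genes and diamonds all genes measured. In iBAT the circles run from -0.60 to -0.32 and lie left of the diamonds throughout, and in eWAT the circles stay close to the diamonds.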

How the data were processed

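RNA of 4 pools, each from 3 mice, was hybridized to one-colour Agilent whole mouse genome arrays, and the samples were grouped by genotype and tissue from their labels. The authors deposited the output of Agilent Feature Extraction 10.7.3.1 for each array, whose processed signal is a background-corrected intensity on a linear scale with no scaling from array to array. A series table deposited by the authors holds signal values, each column of which equals the processed signal divided by 1 constant that sets its median to 1. It was used as an alternative.

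Control spots and outlier spots were left out, the log2 of the processed signal was averaged over the spots of a probe, and each array was centred on its 75th percentile. A probe was counted as well above background if the scanner software had marked more of its usable spots so than not. Gene names were matched to RefSeq (22147 of 34844 names), and probe positions are those of the mm9 array design, whose exons were not assigned here. Promoters of RefSeq were of GRCm38.p6.

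With 1 array a group, genes were described by folds, counts and medians beside all genes measured. Genotype and tissue were fitted together with limma 3.58.1 (lmFit, eBayes, two-sided, Benjamini-Hochberg over 14057 genes), in R 4.3.3, on genes well above background on all 4 arrays. The steps were tested on simulated data with technical noise only. These data held no variation between mice and no genotype effect that differed between tissues. Python 3.11.15, numpy 2.4.6, pandas 2.3.3 and matplotlib 3.10.9 were used otherwise. Signals on all arrays are given for genes at least 1.5-fold apart between genotypes, genes with a bound, genes whose probes differ by 1 or more on the log2 scale, and 11 core genes whatever their values. Mogat1 and Mogat2 fall under the first of these. The genes, lists and tests were chosen with earlier results of these data known. The alternatives tried were quantile normalization, normexp correction of the background (offset 50), no scaling, 2 other centrings, the series table, looser and stricter filters for dim probes, the brightest probe alone, a 1.5-fold threshold and loess normalization, the last chosen after seeing the data. The number of arrays limits the precision.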

Additional observations from a re-analysis of the deposited data

Results flagged for a closer look

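In 6 of the 35 genes the log2 ratio of ASK1-deficient to WT had opposite signs in the tissues, each beyond the median technical SD of its tissue, and the tissues lay at least 1 apart. All 6 were lower in iBAT and higher in eWAT, as were 0.697% of the 14059 genes measured in both tissues under the same limits, while 1.29% met them the other way round. The difference, iBAT minus eWAT, was -2.14 for Fasn, -1.66 for Mogat1, -1.36 for Acly, -1.09 for Slc25a1, -1.08 for Acss2 and -1.05 for Acaca. Of these, 5 take part in making fatty acids from citrate or acetate, and Mogat1 acts in triglyceride assembly. In eWAT their ratios ran from 0.08 for Mogat1 to 0.60 for Fasn, and that of Mogat1 turned below 0 without scaling. Whether the tissues differed was not tested, since each ratio rests on 1 array a genotype.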

How the results depend on the processing

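No paired analysis was possible because each genotype and tissue had 1 array, and for the same reason no array could be left out. In iBAT the median log2 ratio between genotypes of -0.52 became -0.32 under quantile normalization, -0.42 with the percentile taken over detected probes only and -0.41 under loess normalization. In eWAT the median of 0.07 turned to -0.016 without scaling. At the 1.5-fold threshold the counts of genes in iBAT were 1 higher, beside 4.52% of all genes, and 14 lower, beside 4.26%, and 2 were higher in eWAT, beside 1.38%.

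Between tissues in WT, the median of 0.66 became 0.38 under quantile normalization, 0.53 with that of detected probes, 0.35 under loess normalization and -0.26 without scaling, when 2 genes were higher, beside 5.09% of all genes, and 11 lower by 2-fold, beside 39.6%. At the usual scaling and a 1.5-fold threshold, 19 were higher, beside 28.6% of all genes, and 7 lower, beside 21.4%. In ASK1-deficient mice the median of -0.013 became -0.18 under quantile normalization, -0.098 under median centring, -0.087 in the series table, -0.17 under loess normalization and -0.78 without scaling, when 14 genes were lower, beside 35.6%. The count of 4 higher was 2 under normexp, quantile normalization, no scaling, median centring, the series table and loess normalization, and 7 at 1.5-fold, beside 23.2% of all genes. Without scaling, limma called 3 genes higher in iBAT and 17 lower, beside 9.13% and 68.2% of all genes, and under loess normalization 9 higher, beside 27.5%.

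Between tissues, 12 genes in each genotype had a sign that depended on the scaling, and all 12 were above 0 at the usual one. In WT, those that turned without scaling were Mlxipl (-0.026), Slc25a1 (-0.012), Scd1 (-0.26), Dgat1 (-0.21), Srebf1 (-0.51), Aacs (-0.71), G6pdx (-0.53), Pgd (-0.80), Agpat1 (-0.18), Agpat5 (-0.29) and Lpin1 (-0.41), and Scd1 (-0.19) and Dgat2 (-0.13) turned under quantile normalization. In ASK1-deficient mice, those that turned without scaling were Thrsp (-0.052), Dgat2 (-0.023), Mlx (-0.51), Acly (-0.51), Acss2 (-0.33), Acaca (-0.54), Scd1 (-0.59), Fads2 (-0.63), Gpam (-0.36), Agpat1 (-0.41), Agpat2 (-0.30) and Agpat5 (-0.28), and Dgat2 (-0.18) turned under quantile normalization. Aacs, Pgd, Acaca and Scd1 also turned under other scalings. With its brightest probe alone, Pnpla3 turned to 1.2 in WT and to 0.0021 in ASK1-deficient mice. The cause was not tested. For the genes whose signals are given on all arrays, 620 values under the alternatives moved by less than the median technical SD. Another 330 moved by more, among them values listed here that turned from less than 1.5-fold, and 10 turned from 1.5-fold or more.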
